A study of Rattus norvegicus with 24 samples.

Results

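The 9 genes described here mark astrocytes and were followed on rat midbrain arrays: Gfap, Aqp4, Slc1a2, Slc1a3, Aldh1l1, Gja1, S100b, Glul and Agt. Their members were the probe sets of the Affymetrix Rat Genome 230 2.0 array for which the platform annotation gives one of these symbols and no other. The rule found 18 probe sets for the 9 genes, among 31099 probe sets on the array and 14218 genes with a probe set of their own. Of the 18, 17 passed the filter on dim signals used for testing, and the exception was a Gja1 probe set, 1369639_at, at the 4.05th to 12.1th percentile of the arrays. Of the 9 genes, 7 are expressed by astrocytes in most brain regions and are called pan-astrocyte here, and 2, Gfap and Agt, are expressed strongly by astrocytes of some regions and weakly by those of others and are called region-restricted.

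The tissue was gross-dissected midbrain of adult female Long-Evans rats, with 1 array per sample and 24 arrays in all. Intact rats in proestrus, the receptive day of the estrous cycle, gave 12 arrays in 2 sets that differ in how they were named, 6 with a number for a title (number-named) and 6 with titles from Intact-1 to Intact-6 (Intact-named). Ovariectomized (OVX) rats gave 6 arrays, and rats ovariectomized and adrenalectomized (OVX/ADX) gave 6; both groups had been primed with estradiol benzoate, so that they lacked ovaries, or ovaries and adrenals, but not estrogen. In each set, 3 arrays carried the label of paced mating, in which the female controls her contacts with a male, and 3 that of exposure to the empty chamber (chamber-exposed). The methods describe fewer intact rats for the arrays than there are intact arrays, and 1 rat lost during the double surgery, so p-values here measure the spread between arrays.

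The deposited values are log2 signals. The lowest signal of an array was 3.58 to 3.65 on number-named arrays, 2.296 to 2.39 on Intact-named and OVX arrays, and 3.38 to 3.43 on OVX/ADX arrays. From these values 3 separate normalization runs were inferred, called runs here. The sample labels do not name them. Levels were therefore tested only within a run and are given as a description across runs. The sets also differed in regional markers. With all 24 arrays quantile-normalized, the median midbrain dopamine neuron gene averaged 9.60 and 9.23 on number-named and OVX/ADX arrays against 7.05 and 7.22 on Intact-named and OVX arrays, while the median cortex and hippocampus gene averaged 7.52 and 7.69 against 11.04 and 11.05. The median hypothalamic gene averaged 10.5 and 11.6 against 6.42 and 6.43, in the same order of sets. The array's beta-actin control is measured near the 3' and near the 5' end of the transcript. Its 3' signal exceeded its 5' signal by 0.970 to 1.13 on the log2 scale on number-named and OVX/ADX arrays and by 1.499 to 3.40 on Intact-named and OVX arrays. With Intact-1 at 3.40, Intact-3 at 2.85 and Intact-2 at 2.84, these 3 arrays stood highest.

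Astrocytes take up glutamate released by neurons and turn it into glutamine, buffer potassium, pass small molecules to each other through gap junctions, and cover blood vessels with endfeet rich in water channels. Slc1a2 (GLT-1) and Slc1a3 (GLAST) encode their glutamate transporters, Glul glutamine synthetase, Gja1 the gap junction protein connexin 43, Aqp4 the endfoot water channel aquaporin-4, S100b a calcium-binding protein and Aldh1l1 a folate enzyme widely used to label astrocytes. Gfap encodes the intermediate filament of the astrocyte cytoskeleton, and Agt encodes angiotensinogen, the precursor of angiotensin, which brain astrocytes make and which is best known in brainstem, hypothalamus and midbrain. Astrocytes carry glucocorticoid and estrogen receptors, Glul and Agt are known to respond to glucocorticoids, and Gfap to steroids and to injury, so gland removal is a condition under which these genes may be asked about. In bulk tissue, fewer astrocytes and less RNA per astrocyte cannot be told apart.

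Promoter sequence was read for 8 of the 9 genes from RefSeq windows on GRCr8, which gave 13 windows, each taken as the 250 bases before an annotated transcript start. No window was available for Agt, so none of the searches below covers Agt. The 3 shown, 5′ to 3′ on the gene's strand, were taken because they belong to a cytoskeletal, a transporter and an enzyme gene of the list and share, in capitals, a run of letters, AATAAA, an A/T-rich hexamer chosen after the windows had been read.
Gfap, chr10:88361662-88361911, minus strand: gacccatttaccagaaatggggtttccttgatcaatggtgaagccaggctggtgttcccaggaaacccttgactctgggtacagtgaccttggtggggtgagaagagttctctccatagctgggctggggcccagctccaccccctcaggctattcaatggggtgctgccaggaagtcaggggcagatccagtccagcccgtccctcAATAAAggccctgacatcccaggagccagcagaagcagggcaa
Slc1a3, chr2:59557809-59558058, minus strand: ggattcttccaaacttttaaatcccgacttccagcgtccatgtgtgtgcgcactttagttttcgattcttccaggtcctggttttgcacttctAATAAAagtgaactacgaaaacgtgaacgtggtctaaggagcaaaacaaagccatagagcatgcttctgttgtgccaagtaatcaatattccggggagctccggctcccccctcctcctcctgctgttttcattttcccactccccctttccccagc
Glul, chr13:68575816-68576065, plus strand: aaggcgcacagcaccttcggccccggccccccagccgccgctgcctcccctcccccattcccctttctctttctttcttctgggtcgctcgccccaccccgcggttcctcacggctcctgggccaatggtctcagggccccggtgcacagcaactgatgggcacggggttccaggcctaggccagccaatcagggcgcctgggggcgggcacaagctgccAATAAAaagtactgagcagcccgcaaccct
The hexamer was searched on both strands and occurred in 5 of the 13 windows, 3 of which are overlapping windows of Slc1a3, and in 19.5% of the 33469 windows of all genes. The glucocorticoid response element, searched as GNACA and TGTNC with 3 bases between them, was in none of the 13 windows and in 0.373% of all windows. The estrogen response element, searched as GGTCA and TGACC with 3 bases between them, was also in none of the 13 and in 0.0239% of all. Neither the STAT motif (TTCNNNGAA), in 7.67% of all windows, nor TATAAA, in 12.9%, was in a member window. All were searched on both strands, and no match overlapped another motif. A missing match says only that these letters are not in the window.

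Among pan-astrocyte genes, the brightest probe set of most lay near the top of every array. S100b (1386903_at; chr20:12372345-12381159) had medians of 13.53 on number-named, 13.10 on Intact-named, 13.18 on OVX and 13.10 on OVX/ADX arrays. Gja1 (1372002_at; chr20:36302490-36315010) had medians of 13.01, 13.16, 13.11 and 12.68 in the same order. The lowest array was Intact-2 for S100b, at 12.92, and array 2530 for Gja1, at 12.66. Both stood above the 99th percentile of the array throughout, and the pooled SD between arrays of 1 set and label was 0.057 for Gja1 and 0.060 for S100b, among the smallest 5% of genes.

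Glul (1367632_at; chr13:68519500-68585554) ran from 12.73 to 12.97 on number-named arrays (median 12.89), from 12.40 to 12.68 on Intact-named (median 12.57), from 12.41 to 12.63 on OVX (median 12.55) and from 12.29 to 12.35 on OVX/ADX arrays (median 12.33). Slc1a3 (1368565_at; chr2:59482707-59557808) ran from 12.27 to 12.47, 11.55 to 11.88, 11.47 to 11.95 and 11.52 to 11.71 in that order of sets. Within the shared run, the Intact-named and OVX arrays overlapped for both genes.

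Aqp4 (1372190_at; chr18:6782389-6799034) was nearly constant on number-named arrays, at 12.64 to 12.69, and wider on the others. It ran from 11.84 on Intact-2 to 12.52 on Intact-1, from 12.03 to 12.54 on OVX arrays and from 12.06 to 12.48 on OVX/ADX arrays. Aldh1l1 (1368378_at; chr4:124617182-124663674) lay between the 73.6th and 83.3rd percentile of all arrays, with medians of 9.13, 9.08, 9.30 and 8.78. Slc1a2 (1369693_a_at; chr3:109460109-109590445) was the dimmest member by its brightest probe set, at the 38.0th to 60.3rd percentile, with medians of 7.26, 7.49, 7.55 and 6.62. A dim probe set does not say that the transcript is scarce, since probe sets differ in how they bind.

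Of the region-restricted pair, Gfap (1368353_at; chr10:88352987-88361661) was high on every array, between the 97.7th and 99.4th percentile. Its signal ran from 12.25 to 12.57 on number-named arrays (median 12.46), from 12.14 to 12.93 on Intact-named (median 12.53), from 12.26 to 12.71 on OVX (median 12.46) and from 11.33 to 12.19 on OVX/ADX arrays (median 11.998). Intact-1 was highest and array 2530 of the OVX/ADX set lowest. On the percentile scale, which takes out the scaling of the whole array but not other differences between runs, the 4 sets overlapped.

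Agt (1387811_at; chr19:69426540-69447017) separated the sets most among the brightest probe sets. It ran from 11.87 to 12.24 on number-named arrays (median 12.07) and from 11.50 to 11.98 on OVX/ADX arrays (median 11.82). On Intact-named arrays it ran from 9.85 on Intact-5 to 11.01 on Intact-4 (median 10.25), and on OVX arrays from 10.43 on OVX-6 to 11.44 on OVX-1 (median 10.90). No Intact-named or OVX array reached the lowest number-named or OVX/ADX value. Agt and Gfap had the largest spread between arrays of 1 set and label, with pooled SDs of 0.320 and 0.249, against 0.057 to 0.214 for the 7 pan-astrocyte genes.

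**Figure D1:**
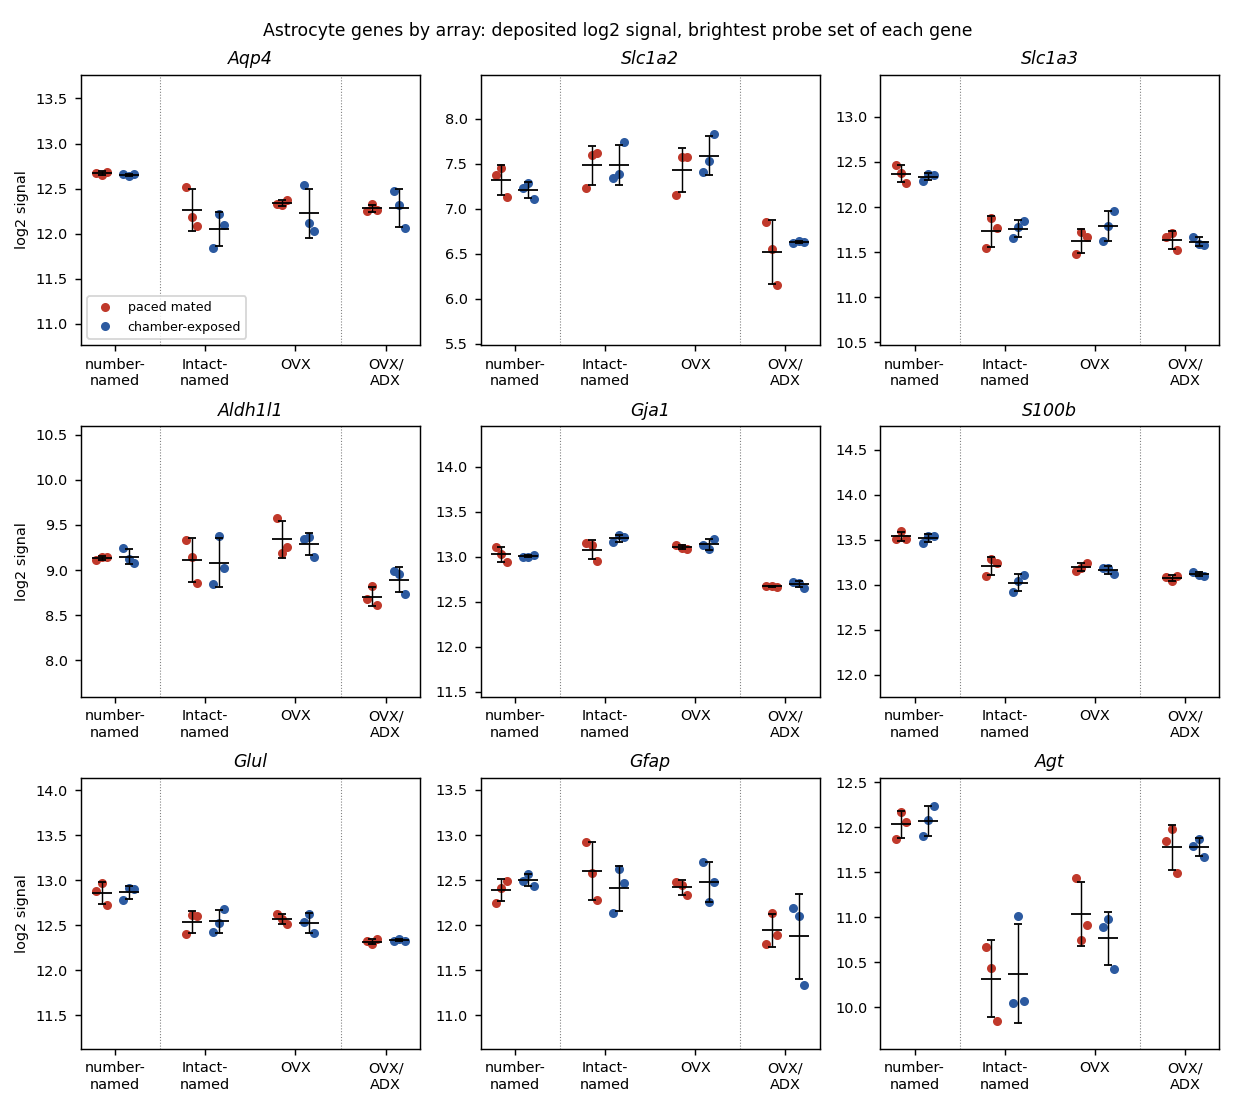
Deposited log2 signal of the brightest probe set of each of the 9 genes (y axis, every panel spanning 3 log2 units) on each of the 24 arrays, by array set (x axis) and mating label (red, paced mated; blue, chamber-exposed); black marks are the mean ± SD of 3 arrays, and dotted lines part the 3 inferred normalization runs, across which levels are a description. Paced mated and chamber-exposed arrays overlap in every panel and set but Gja1 on Intact-named arrays, and Agt is lowest on Intact-named arrays, from 9.85 to 11.01.

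Across runs, the 12 number-named and OVX/ADX arrays were set against the 12 Intact-named and OVX arrays after quantile normalization of all 24, as a description. Dopamine, cortical and hypothalamic markers differed between the same sides, and the part of tissue content in the member differences was not tested. The brightest probe set of Agt was 1.57 higher on the former, and the difference for Slc1a2 was -0.63. Aqp4, Slc1a3, S100b and Glul were 0.59, 0.58, 0.57 and 0.39 higher, and Gja1, Gfap and Aldh1l1 differed by 0.08, 0.02 and -0.07. On the deposited signals these differences were 1.29 for Agt, -0.58 for Slc1a2, 0.25, 0.26, 0.16 and 0.05 for Aqp4, Slc1a3, S100b and Glul, and -0.28, -0.30 and -0.24 for Gja1, Gfap and Aldh1l1, so that Gja1 and Gfap changed sign with the scaling. The median difference of all probe sets was -0.03 after quantile normalization and -0.09 as deposited. The 12 arrays on one side did not overlap the 12 on the other for 5 of the 9 genes, Aqp4, Slc1a3, S100b, Glul and Agt; the same held for 38.0% of the brightest probe sets of all genes. On the deposited signals, Agt was the 1 gene of the 9 without overlap, against 32.7% of the brightest probe sets of all genes.

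The number-named and OVX/ADX arrays, which carried similar dopamine markers and differ in gland state, run and other tissue markers, were close for all 18 probe sets after quantile normalization. The difference, number-named minus OVX/ADX, ran from -0.39 for Slc1a3 1371130_at to 0.35 for Slc1a3 1368565_at, 2 probe sets of 1 gene. Agt differed by -0.11, Gfap by 0.14, Glul by 0.16 and Aqp4 by 0.00. The median anterior pituitary gene averaged 8.83 on number-named and 6.99 on OVX/ADX arrays. For thalamic genes these values were 9.95 and 10.86, and for hypothalamic genes 10.5 and 11.6. Gland state, run and tissue content cannot be told apart in the member values.

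Probe sets of the same gene disagreed on whether a gene differed between these sides. Gja1 1372002_at stayed between 12.76 and 13.15 on the 24 quantile-normalized arrays, whereas Gja1 1369640_at lay at 9.70 to 10.40 on number-named and OVX/ADX arrays and at 5.41 to 6.496 on Intact-named and OVX arrays, the 24.5th to 40.8th percentile of those arrays, 4.14 apart in the mean. Aqp4 gave differences of 0.59 (1372190_at), 1.69 (1387397_at) and 4.36 (1368981_at), all in the same direction. Slc1a3 gave 0.58 (1368565_at), 3.26 (1388064_a_at) and -0.73 (1371130_at), so that its probe sets pointed in both directions.

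Glul, the enzyme that makes glutamine, gave 0.39 (1367632_at), 1.29 (1386870_at) and 3.10 (1367633_at). Only for Slc1a2 were the probe sets within 1 log2 unit, at -0.63 and 0.11. The greatest gap between probe sets of 1 gene was 4.06 for Gja1, 3.99 for Slc1a3, 3.77 for Aqp4, 2.71 for Glul and 0.74 for Slc1a2. Thus 4 of the 5 members with more than 1 tested probe set had a gap over 2 log2 units, against 10.5% of the 4070 genes with more than 1 tested probe set. Such a gap can only widen as probe sets are added, and these shares were not matched for the number of probe sets per gene.

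Over the 17 tested member probe sets, 7 were more than 1 log2 unit higher on number-named and OVX/ADX arrays, against 9.39% of all probe sets. Of the 17, 4 were more than 2 units higher, against 1.98% of all, and none was more than 1 unit lower, against 8.60%. The median difference was 0.39 for the 9 brightest probe sets and 2.39 for the other 8. Over all genes, the brightest probe sets had a median of -0.05 and the others 0.27. Agt, the member gene that differed most by its brightest probe set, has 1 probe set, so its difference has no second probe set to be set beside.

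**Figure D2:**
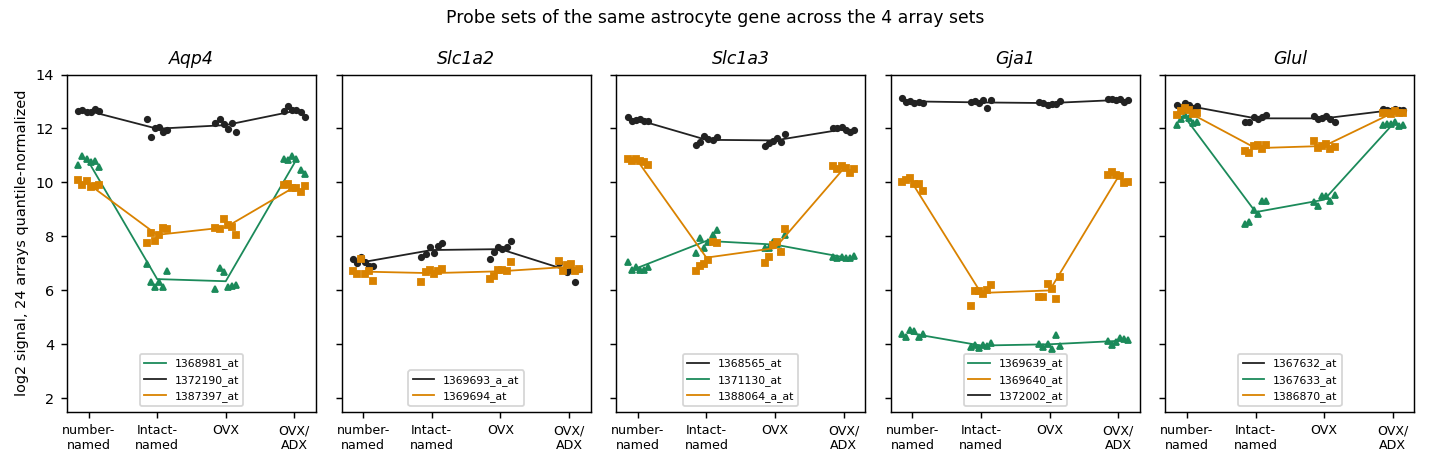
Log2 signal after quantile normalization of the 24 arrays (y axis) for every probe set of the 5 genes with more than 1, by array set (x axis); points are arrays, lines join set means, and black is the brightest probe set of the gene. Gja1 1372002_at is level at 12.76 to 13.15, while Gja1 1369640_at lies at 9.70 or more on number-named and OVX/ADX arrays and at 6.496 or less on Intact-named and OVX arrays.

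The beta-actin control, higher at its 3' end on the same 12 arrays, was set beside each member within the shared run. Over these 12 arrays, 17 relations were computed, with Benjamini-Hochberg adjustment over the 17. Slc1a3 1388064_a_at fell as the beta-actin 3' excess rose, with Pearson r = -0.93 (permutation p = 2e-05, adjusted 0.00034) and Spearman rho = -0.97 (permutation p = 1e-05, the smallest these permutations can give, adjusted 8.5e-05). Without Intact-1 and Intact-3, the 2 arrays farthest from the median, r was -0.94. Within the 6 Intact-named arrays r was -0.98 and within the 6 OVX arrays -0.98 (exact permutation p = 0.0042 in each).

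Glul 1367633_at behaved alike, with r = -0.92 (permutation p = 7e-05, adjusted 0.00060) and rho = -0.94 (permutation p = 1e-05, adjusted 8.5e-05). Its r was -0.95 without Intact-1 and Intact-3, -0.88 within Intact-named arrays (exact permutation p = 0.043) and -0.91 within OVX arrays (exact permutation p = 0.019). Gja1 1369640_at had r = -0.77 (permutation p = 0.0031, adjusted 0.017), with rho = -0.71 (permutation p = 0.013, adjusted 0.073), and -0.67 without the 2 arrays. Slc1a2 1369694_at had r = -0.75 (permutation p = 0.0044, adjusted 0.019), with rho = -0.65 (permutation p = 0.025, adjusted 0.11), and -0.67 without them.

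Slc1a2 1369693_a_at had r = -0.67 and Aqp4 1387397_at r = -0.68, each with a permutation adjusted p of 0.0495, and their rho did not pass (adjusted permutation p = 0.14 and 0.17). The Aqp4 value dropped to -0.25 without Intact-1 and Intact-3 and rests on them. The brightest probe sets of Aqp4, Slc1a3, Gja1, Glul, S100b, Aldh1l1, Gfap and Agt had r between -0.46 and 0.47, with no adjusted p below 0.05. Within the 6 OVX arrays alone, the brightest Slc1a3 probe set had r = -0.94 (exact permutation p = 0.0069) and the brightest Aqp4 probe set 0.87 (exact permutation p = 0.029), with -0.63 and 0.46 within Intact-named arrays. Where on the transcript each member probe set lies was not analysed here, and the part of the beta-actin measure in the set differences was not tested.

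**Figure D3:**
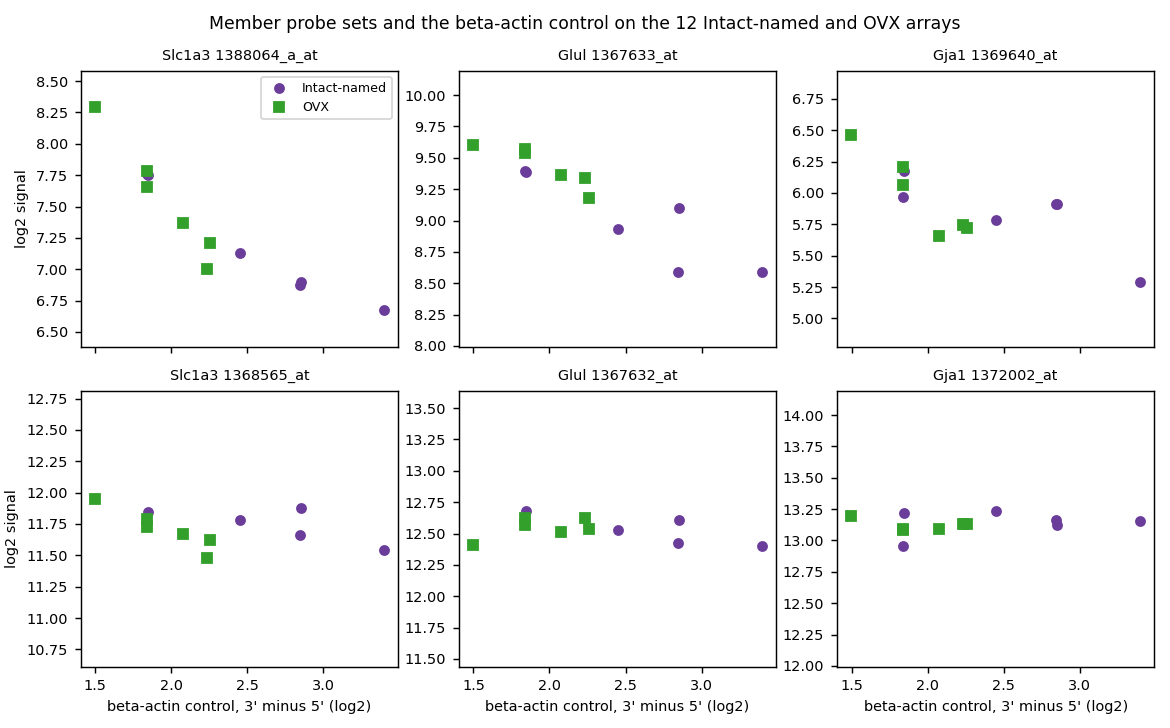
Deposited log2 signal (y axis) of 2 probe sets each of Slc1a3, Glul and Gja1 against the log2 excess of the beta-actin 3' control over the 5' control (x axis) on the 12 Intact-named (circles) and OVX (squares) arrays of 1 inferred normalization run; every panel spans 2.2 log2 units. The dimmer probe sets in the upper row fall along the x axis (r = -0.93, -0.92 and -0.77), and the brightest probe sets in the lower row vary less.

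Whether paced mating changed the astrocyte genes was asked first over all 24 arrays, with the array set as a term in limma. The mating labels were taken as given. None of the 17 member probe sets was called at an adjusted p below 0.05, and none had an unadjusted p below 0.05; of all 27035 probe sets 0% were called, and 1134 had an unadjusted p below 0.05. A plain test of each probe set on its own spread likewise called 0 members and 0 probe sets, with 0 members and 1116 probe sets at an unadjusted p below 0.05. Of the 9 genes, 5 were above 0 and 4 below, and the median difference, paced mated minus chamber-exposed, was 0.00 over the 9 genes and 0.00 over all probe sets. The largest was that of Aqp4, at 0.08 (SE 0.06; 95% interval -0.05 to 0.21; adjusted p = 0.97 by limma), and its exact permutation p within sets was 0.21 (0.64 after adjustment over the 9 genes).

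S100b differed by 0.05 (SE 0.03; interval -0.02 to 0.12) and Gja1 by -0.04 (SE 0.03; interval -0.10 to 0.02), with exact permutation p of 0.11 and 0.13. Glul, Gfap, Agt, Slc1a3, Slc1a2 and Aldh1l1 lay between -0.04 and 0.04. The 95% intervals of all 9 genes lay within -0.20 and 0.28, on the log2 scale, the widest being that of Agt. The dimmer probe sets of Slc1a3 had the lowest values, -0.12 for both 1371130_at and 1388064_a_at (intervals -0.27 to 0.04 and -0.38 to 0.15).

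In the 12 intact arrays, paced mating left 0 of 17 member probe sets called and 0 with an unadjusted p below 0.05, against 0% of all called and 2086 at an unadjusted p below 0.05 (2031 in the plain test). Aqp4 again had the largest difference among the 9 genes, at 0.11. On number-named arrays alone, 0.0444% of probe sets were called (12) and no member. A single member probe set, Slc1a2 1369694_at, had an unadjusted p below 0.05, with 6.92, 7.36 and 6.95 on paced mated and 6.85, 6.86 and 6.55 on chamber-exposed arrays, which did not overlap, a difference of 0.32 (adjusted p = 0.52 by limma). The brighter Slc1a2 probe set differed by 0.11 on these arrays, where the 9 anterior pituitary genes listed as markers had a median difference of -2.19; the part of that tissue in the member values was not tested. The study gives such hormone genes the opposite direction in intact rats, so the sign of every mating difference on these arrays rests on the labels alone. The number-named arrays are also part of the fits over all arrays and over the 12 intact arrays, which rest on the same labels. Had these labels been exchanged, differences of the other sets could be offset in those fits, and this was not tested.

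On Intact-named arrays, 0.0148% of probe sets were called (4) and no member, with no member at an unadjusted p below 0.05. Aqp4 had the largest difference among the genes there, 0.21 (interval for any gene within -0.78 to 0.66), and Gja1, at -0.13, was the single gene whose paced mated and chamber-exposed arrays did not overlap. On OVX arrays, 0% were called and 654 probe sets, none of them a member, had an unadjusted p below 0.05. Agt had the largest difference there, at 0.27, with 11.44, 10.75 and 10.92 on paced mated and 10.89, 10.98 and 10.43 on chamber-exposed arrays, which overlapped.

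On OVX/ADX arrays, 0% were called and 667 probe sets, again without a member, had an unadjusted p below 0.05. Aldh1l1 had the largest difference, at -0.19, with 8.68, 8.82 and 8.61 on paced mated and 8.99, 8.95 and 8.73 on chamber-exposed arrays, which overlapped. The plain per-probe-set test called no probe set in the intact arrays together or in any single set, where no member and 707 (OVX) and 754 (OVX/ADX) probe sets had an unadjusted p below 0.05. With 3 arrays against 3, an exact permutation test cannot go below p = 0.1.

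Intact and ovariectomized rats could be compared within a run, between the 6 Intact-named and the 6 OVX arrays with the mating label as a term. The OVX rats also differed from rats in natural proestrus by surgery and estradiol priming, and each set has its own title prefix. These could not be told apart from loss of the ovaries. Limma called 1.44% of probe sets (388, of which 295 were higher and 93 lower on Intact-named arrays) and 0 of the 17 member probe sets; 3 members had an unadjusted p below 0.05, against 5672 of all (21.0%). The 388 calls depended on single arrays, with 0 left without OVX-4, 27 without Intact-2, 33 without Intact-3, 88 without OVX-1, 104 without Intact-1, 137 without OVX-5, 146 without OVX-3 and 253 without OVX-2. Without Intact-4 and Intact-6 there were 272 and 274. The count rose to 427 without Intact-5 and to 443 without OVX-6. No member was called in any of these. The plain test called 84 probe sets and no member, with 2 members at an unadjusted p below 0.05. Of the 9 genes, 6 lay between -0.06 and 0.05. Agt, the angiotensin precursor, had the largest difference, at -0.55, lower on Intact-named arrays (10.35 ± 0.44, SD, n = 6) than on OVX arrays (10.90 ± 0.33, SD, n = 6), with overlap (SE 0.20; interval -0.996 to -0.11; adjusted p = 0.16 by limma). Its exact permutation p within mating labels was 0.05 (0.45 after adjustment over the 9 genes).

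Aldh1l1 came next, at -0.22 (SE 0.11; interval -0.46 to 0.02; adjusted p = 0.28), followed by Aqp4 at -0.13 (interval -0.35 to 0.10; adjusted p = 0.51). S100b, Slc1a2 and Glul lay at -0.06, -0.02 and -0.01, and Gja1, Slc1a3 and Gfap at 0.02, 0.04 and 0.05. Gfap, the gene most used to judge an astrocyte response, had an interval of -0.21 to 0.32. The median was -0.02 over the 9 genes and 0.00 over all probe sets.

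The other 2 members with an unadjusted p below 0.05 were dimmer probe sets of Glul and Aqp4. Glul 1367633_at ran from 8.59 to 9.40 on Intact-named and from 9.18 to 9.60 on OVX arrays, a difference of -0.43 (SE 0.15; interval -0.76 to -0.10; adjusted p = 0.15 by limma), whereas the brightest Glul probe set differed by -0.01. Aqp4 1387397_at ran from 7.78 to 8.34 and from 8.04 to 8.67, a difference of -0.27 (interval -0.53 to -0.01; adjusted p = 0.22). Glul 1367633_at was lower on arrays with a larger beta-actin 3' excess, whereas for Aqp4 1387397_at that relation rested on Intact-1 and Intact-3. The excess was 2.54 ± 0.62 on Intact-named and 1.96 ± 0.29 on OVX arrays (SD, n = 6 each). With that excess as a covariate, chosen after seeing the data, the Agt difference was -0.82 (adjusted p = 0.10), and the same fit called 68 probe sets in place of 388.

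Markers of other tissue moved with this comparison too. The median difference, Intact-named minus OVX, was -1.46 over 5 thalamic genes (all below 0, 1 called), -0.93 over 5 cerebellar neuron genes (all below 0, 1 called), -0.71 over 6 meningeal genes (all below 0, none called) and -0.71 over 5 choroid plexus and ependymal genes (4 below 0, none called). The median of 5 thalamic genes was 8.15 to 9.37 on Intact-named and 8.18 to 10.97 on OVX arrays. Over the 12 arrays their median and Agt had r = 0.70 (permutation p = 0.012; rho = 0.77, permutation p = 0.0052), and for Aqp4 the values were alike (r = 0.61, permutation p = 0.036; rho = 0.75, permutation p = 0.0069). After adjustment over 18 relations, the 9 genes with thalamic and with cortical markers, neither passed (0.21 for both r and 0.062 for both rho). Within Intact-named arrays r was 0.83 for Agt and 0.84 for Aqp4 (exact permutation p = 0.031 and 0.015), and within OVX arrays 0.38 and 0.50 (exact permutation p = 0.43 and 0.31). Without OVX-4 and OVX-5, the 2 arrays farthest from the median of the thalamic markers, r was 0.71 for Agt and 0.84 for Aqp4. Aldh1l1 had r = 0.62 (permutation p = 0.034, adjusted 0.21) and rho = 0.67 (permutation p = 0.020, adjusted 0.12). Within Intact-named arrays r was 0.89 for Aldh1l1 and 0.88 for Gfap (exact permutation p = 0.011 and 0.014). Within OVX arrays it was 0.20 and -0.33 (exact permutation p = 0.67 and 0.52). Over the 12 arrays Gfap had r = 0.04, S100b 0.33 and Glul 0.10, and Slc1a2, Slc1a3 and Gja1 had -0.24, -0.42 and -0.22. With cortical markers, Agt had r = -0.35 over the 12 arrays (permutation p = 0.27, adjusted 0.44; rho = -0.31, permutation p = 0.32, adjusted 0.48), -0.97 within OVX arrays (exact permutation p = 0.021) and -0.01 within Intact-named arrays (exact permutation p = 0.97). Without OVX-1 and OVX-6 it was -0.05. Gland state, tissue content and the beta-actin measure differed together between these sets, and their parts in the Agt value were not tested.

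The mating difference was compared between Intact-named and OVX arrays by an interaction term, which called 0.0074% of probe sets (2) and no member, with no member at an unadjusted p below 0.05 by limma or by the plain test. The lowest interaction value among the 9 genes was that of Agt, at -0.32, and the highest that of Gfap, at 0.25. The interval of Agt, from -1.23 to 0.58, was the widest and the single one to reach 1 log2 unit. The next widest was that of Gfap, from -0.28 to 0.79, and the narrowest was that of Gja1, from -0.33 to 0.14.

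**Figure D4:**
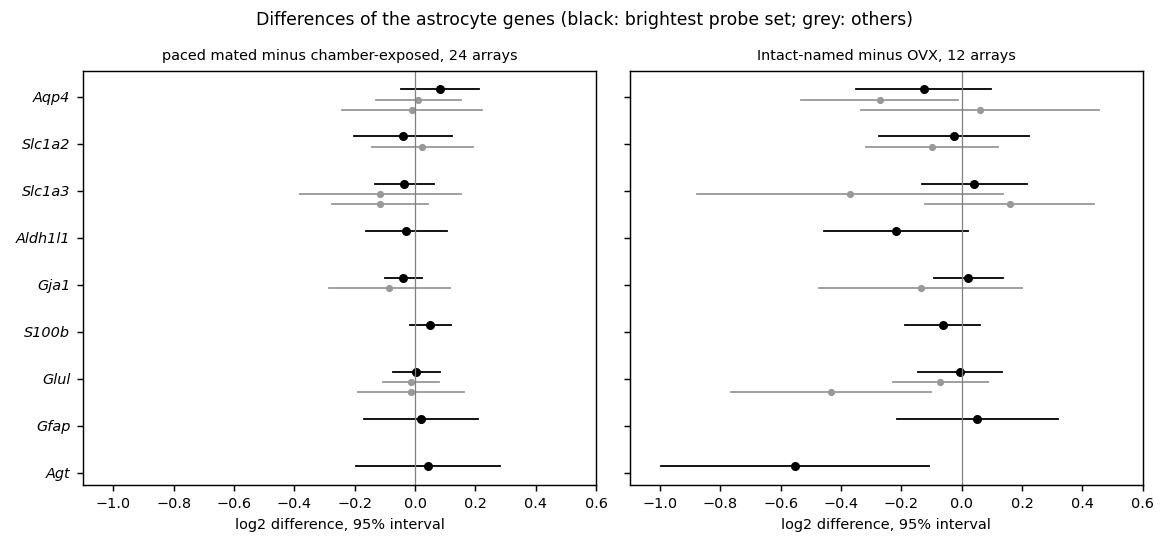
Log2 differences with 95% intervals (x axis) for the 9 genes (y axis), paced mated minus chamber-exposed over 24 arrays on the left and Intact-named minus OVX over 12 arrays on the right; black is the brightest probe set, grey the others. Every interval on the left spans 0, and on the right those of Agt, Glul 1367633_at and Aqp4 1387397_at do not, without passing the adjusted threshold.

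Genes around the members were read from lists. Of 30 other pan-astrocyte genes, 26 were measured; 15 of the 26 were above 0 for paced mating over 24 arrays (median 0.01) and 6 of the 26 above 0 for Intact-named minus OVX (median -0.12), and none was called in either. For Intact-named minus OVX, 10 of the 26 had an unadjusted p below 0.05, against 21.0% of all probe sets, and for mating 1 of the 26, against 4.19%. Lists of other cell types were also read for Intact-named minus OVX. Above 0 were 0 of 7 oligodendrocyte (median -0.14), 1 of 6 endothelial (-0.11), 2 of 7 microglial (-0.05) and 4 of 8 neuronal genes (0.01). The astrocyte genes of non-telencephalic regions were Slc6a11 (the GABA transporter GAT-3) and Slc6a9 (the glycine transporter GlyT1). After quantile normalization, both were higher on number-named and OVX/ADX arrays. As deposited, Slc6a11 averaged 8.60 and 7.85 on these, against 4.71 and 4.97 on Intact-named and OVX arrays. There it lay at the 14.7th to 22.9th percentile, so its difference is one against a signal near the dim end. Slc6a9 averaged 11.20 and 10.21 as deposited, against 10.34 and 10.51, so that its OVX/ADX mean was the lowest. After quantile normalization it differed by 0.54. Of 3 telencephalic astrocyte genes, Lhx2, a transcription factor also found in cortical neurons, had a difference of -2.29 and Mfge8, a secreted glycoprotein, one of -0.58, while Slc7a10, a neutral amino acid transporter, was 1.29 higher. None of these 5 was called for mating or for Intact-named minus OVX.

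Genes of reactive astrocytes gave 9 measured of 13, none called for mating or for Intact-named minus OVX, with medians of -0.07 and -0.15. Of 14 partners in the glutamate-glutamine cycle and at endfeet, 12 were measured. Among these, Gja1 is itself a member, and Kcnj10 and Gjb6 were also counted with the other pan-astrocyte genes. None was called for mating, and 2 of the 12 were called lower on Intact-named than on OVX arrays, where 1.44% of all probe sets were called; without OVX-4 no probe set was called and both calls were lost. These were Slc17a6, a vesicular glutamate transporter of thalamic and other subcortical neurons (difference -1.69, SE 0.35, adjusted p = 0.039 by limma), and Slc38a5, a glutamine transporter (difference -0.35, SE 0.08, adjusted p = 0.049 by limma). Slc17a6 is also the called gene of the thalamic list above, so it is the same call. Of 13 renin-angiotensin genes, which act on the product of Agt, 9 were measured and none was called for mating (median -0.06) or for Intact-named minus OVX (median 0.04).

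Within sets, the members did not vary as 1 block. Each array's deviation from its set mean was correlated between the 9 genes over 24 arrays, with p from permutation within sets and adjustment over 36 pairs. Of these, 3 pairs passed by Pearson's r. Slc1a2 and Slc1a3, the 2 glutamate transporters, had r = 0.78 (permutation p = 2e-05, adjusted 0.00072; rho = 0.74, adjusted 0.0079), with 0.62 to 0.94 within each set. With the beta-actin 3' excess, these probe sets had r = -0.81 and -0.63 within Intact-named arrays and -0.86 and -0.94 within OVX arrays. The part of the beta-actin measure in this pair was not tested. Agt and Aldh1l1 had r = 0.82 (permutation p = 0.00013, adjusted 0.0016; rho = 0.74, adjusted 0.016), with -0.52 on number-named and 0.56 to 0.95 on the other arrays. Aqp4 and Gfap had r = 0.78 (permutation p = 1e-04, adjusted 0.0016; rho = 0.72, adjusted 0.016), with -0.34 on number-named and 0.57 to 0.97 on the other arrays. With the thalamic markers, Aldh1l1, Agt, Aqp4 and Gfap had r = 0.89, 0.83, 0.84 and 0.88 within Intact-named arrays. Within OVX arrays the values were 0.20, 0.38, 0.50 and -0.33. The part of tissue content in these pairs was not tested.

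Without the 2 arrays farthest from the median of the first gene, r was 0.74 for Slc1a2 and Slc1a3, 0.72 for Aldh1l1 and Agt and 0.67 for Aqp4 and Gfap. By rho alone, Aldh1l1 also passed with Aqp4 (rho = 0.69, adjusted permutation p = 0.031) and with Gfap (rho = 0.65, adjusted permutation p = 0.033), where r was 0.62 and 0.60 (adjusted permutation p = 0.083 for both). No other pair passed, and the median r was 0.10 over 36 pairs and 0.09 over the 21 pan-astrocyte pairs. Gfap and Agt, the region-restricted pair, had r = 0.43 (permutation p = 0.062, adjusted 0.30). The lowest value was that of Gja1 and S100b, r = -0.46 (permutation p = 0.18, adjusted 0.51).

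**Figure D5:**
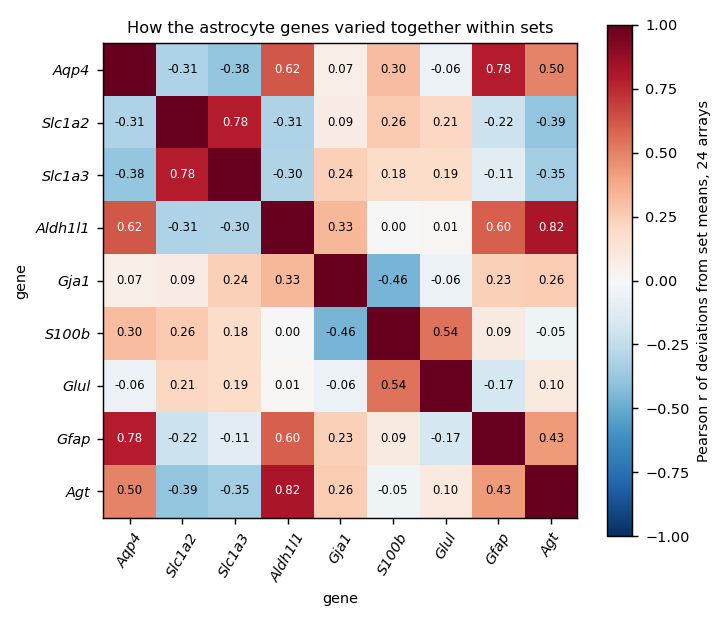
Pearson correlation (colour and printed value) between the 9 genes of the deviations of the 24 arrays from their set means, brightest probe set of each gene on both axes. Slc1a2 with Slc1a3, Agt with Aldh1l1 and Aqp4 with Gfap stand out at 0.78 to 0.82.

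The genes most like the members in these deviations were ranked among 13072 other genes, as a description over 24 arrays that share sets, runs and tissue content. Nearest to the mean of the 7 pan-astrocyte genes were Mlc1 (r = 0.80), which encodes an astrocyte endfoot membrane protein, Glud1 (r = 0.73), glutamate dehydrogenase, and Gng7 (r = 0.71), a G protein subunit. Nearest to Gfap were Dbi (r = 0.85), the diazepam-binding inhibitor made by glia, Slc39a1 (r = 0.83), a zinc transporter, and Mettl7a (r = 0.82). Nearest to Agt were Sparc (r = 0.87), a matrix-associated glycoprotein, Sdsl (r = 0.86), a serine dehydratase-like enzyme, and Pygm (r = 0.85), glycogen phosphorylase.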

How the data were processed

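RNA of 24 midbrain samples was hybridised to Affymetrix Rat Genome 230 2.0 arrays. Per the labels, the authors made the deposited log2 signals by RMA in Affymetrix Expression Console 1.4; the methods name another normalization. Control probe sets (57) were left out of tests. The 27035 probe sets that reached the 20th percentile of signal on 3 or more arrays were tested with limma 3.58.1 in R 4.3.3, with Benjamini-Hochberg adjustment over all and a threshold of 0.05, in 8 comparisons; the test was checked on simulated data. The number of arrays limits the precision. All 9 members are named, and the probe set with the highest mean signal stands for the gene; of other lists, counts, medians and up to 4 called genes are given, and the 3 genes most like the pan-astrocyte mean, Gfap and Agt. Members and lists were chosen with earlier results of these data known. Symbols come from the platform annotation (20832 probe sets with 1 symbol, 436 with several). Alternatives were other filters, normalizations, moderation, array weights, a replicate block, each array left out and, added after seeing the data, the beta-actin measure as a covariate. Permutations numbered 100000 where not exact.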

Additional observations from a re-analysis of the deposited data

Results flagged for a closer look

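Among 36 groups of 6 arrays (9 genes in 4 sets), 1 held a sample far from the others, where chance marks about 5% of groups. Glul was 12.29 on array 4125 of the OVX/ADX set, and its nearest neighbour was 12.33, a gap of 0.653 of the whole range of the set. The range of Glul on OVX/ADX arrays was the smallest of its 4 sets, from 12.29 to 12.35.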

How the results depend on the processing

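No member probe set was called in any of the 157 combinations of comparison and setting that were run, and in 573 alternative values for single genes the smallest adjusted p was 0.070, for Agt in Intact-named minus OVX without Intact-4 (-0.71). That Agt difference lay between -0.71 and -0.43 with each array left out and between -0.82 and -0.55 under the other settings (adjusted p 0.081 to 0.23). Of the 573 values, 36 changed sign, none of a called difference, and apart from the Agt interaction (-0.32) these were differences between -0.04 and 0.05. For paced mating over 24 arrays, leaving out 1 array gave -0.072 to 0.0025 for Slc1a2, -0.0096 to 0.020 for Glul, -0.039 to 0.051 for Gfap and -0.011 to 0.11 for Agt; array weights gave -0.015 for Glul and -0.0046 for Gfap; and the beta-actin covariate, added after seeing the data, gave 0.0086 for Slc1a2, -0.0091 for Gfap and -0.020 for Agt. For Intact-named minus OVX, leaving out 1 array gave -0.096 to 0.037 for Slc1a2, -0.037 to 0.028 for Glul and -0.035 to 0.13 for Gfap; quantile normalization gave 0.0015 for Glul; array weights gave 0.0038 for Glul and -0.00051 for Gfap; and the beta-actin covariate gave 0.17 for Slc1a2, -0.0097 for Gja1, 0.055 for Glul and -0.077 for Gfap. The Agt interaction was 0.0086 with array weights and -0.0075 without Intact-4. Over all probe sets, the 388 calls of Intact-named minus OVX became 84 in the plain test, 719 with array weights, 68 with the covariate and 375 with the title number as a replicate block, and 0 to 443 with 1 array left out (104, 27 and 33 without Intact-1, Intact-2 and Intact-3; 88, 253, 146, 0 and 137 without OVX-1, OVX-2, OVX-3, OVX-4 and OVX-5). The numbers do not pair the samples, since deviations correlated at 0.018 to 0.31 and 1 of 6 Intact-named arrays was most like the OVX array of its own number; under the replicate block Agt had an adjusted p of 0.086. On number-named arrays the 12 calls for mating became 5 with the 50th percentile filter, 4 after quantile normalization, 19 after subtraction of medians, 0 in the plain test, 112 with array weights, 54 with the covariate and 2 to 58 with 1 array left out. On Intact-named arrays the 4 calls became 0 in the plain test, 1016 with array weights, 7 with the covariate and 1 to 15 with 1 array left out. Over the 12 intact arrays the 0 calls became at most 1 (0 to 1, the 1 without Intact-5 or Intact-6), and the 2 calls of the interaction became 1 in the plain test and 1 to 9 with 1 array left out. The median difference across runs was 0.05 as deposited and 0.39 after quantile normalization for the brightest probe sets, and 2.20 and 2.39 for the others. The causes were not tested.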
